A study of Amphimedon queenslandica with 124 samples.

Results

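The spot stage of the demosponge Amphimedon queenslandica was set against the cloud stage that comes before it, in whole single embryos. The members were the 7 libraries labelled spot and the 7 labelled cloud in the field for developmental stage. They are 14 of the 124 libraries in the series, and all gene models in the part of the table at hand were compared. Each library is 1 individual. No treatment, strain, mother or age is named in the labels, so embryos of 1 brood may be among the 7 of a stage.

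The series follows single individuals from cleavage to adult by CEL-seq, in which barcodes mark each library and the 3′ ends of polyadenylated RNA are counted. A stage was given for 123 individuals in 14 stages. The other stages used below are cleavage, brown, late spot, ring and late ring, with 7 embryos each, 13 free-swimming larvae, and the stages from settlement to adult.

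The mother broods her embryos in chambers inside her body. The later embryo stages are named for pigment cells, which gather as a diffuse cloud at the posterior pole, draw together into a spot and then open out into a ring. In the larva the pigment ring lies beside cells with long cilia and is known for steering the larva away from light. Polyadenylated RNA was measured in whole embryos, so a change in the number of cells of a type and a change in RNA per cell cannot be told apart.

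Total counts ran from 375199 to 1677938 in the 7 spot embryos, with a median of 953244, and from 580452 to 3059409 in the 7 cloud embryos, with a median of 1454224. The ranges overlapped, and the difference in log10 total counts had an exact two-sided permutation p of 0.158 (adjusted over 3 measures, p = 0.158). Thinned at random to 375199 counts each, spot libraries held 9194 ± 981 gene models with a count and cloud libraries 10181 ± 939 (SD, n = 7 each; exact two-sided permutation p = 0.0769, adjusted p = 0.122). The 50 most abundant gene models of a library took 36.4% ± 3.77 of its counts at spot and 33.2% ± 2.39 at cloud (SD, n = 7 each; exact two-sided permutation p = 0.0816, adjusted p = 0.122). With 1 embryo left out at a time, the difference in gene models with a count had an exact permutation p of 0.014 to 0.154 before adjustment. The lowest was without spot replicate 1, the only 1 of 14 omissions with a p under 0.05. The files give identifiers and no gene names, the reference table of names matched 0 of them, and so stage markers were not checked and gene functions are not given.

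At the spot stage 109 gene models rose and 128 fell, of 5737 that passed the filter on low counts in these 14 libraries, relative to cloud. The calls are those of edgeR's quasi-likelihood test at a Benjamini-Hochberg adjusted p under 0.05, and 4.13% of the gene models tested were called in either direction, 1.9% higher and 2.23% lower. These 14 libraries held counts for 24739 of the 36868 gene models with a complete line in the table. The median log2 fold change of the 109 was 1.36 and that of the 128 was -1.74. Changes of at least 8-fold were few, with 6 gene models up and 6 down. At a bound of 4-fold there were 22 up and 43 down. The smallest changes called were 0.72 up and 0.85 down on the log2 scale.

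The gene models that rose made up 10.2% of the counts at hand at spot and 4.80% at cloud, as means over 7 libraries each. Those that fell made up 0.795% at spot and 2.95% at cloud. Since the test chose both sets from these libraries, the shares describe the sets and carry no test. In 34 of the 109 that rose, every spot embryo stood above every cloud embryo in CPM, the counts of a gene model for every 1000000 counts of its library. These 34 were all such gene models among the 5737 tested (0.593%). In 50 of the 128 that fell, every spot embryo stood below every cloud embryo, against 76 of all gene models tested (1.32%).

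The split into higher and lower calls depended on the scaling. With each library scaled to its total and without TMM factors, 63 gene models were called higher and 194 lower, a share of 24.5% higher against 46% in the fit reported here. That scaling put the median log2 fold change of all gene models tested at -0.22, against -0.01. In a single fit of all 123 staged libraries 20 were called higher and 17 lower, and 5 and 4 of them were among the 109 and the 128. All 237 kept the sign of their fold change in that fit, but it holds the same 14 libraries that chose them, so this is no independent check. The counts also moved with single embryos. Without cloud replicate 3 the test called 61 higher and 73 lower, without spot replicate 2 it called 62 higher, without spot replicate 6 it called 70 higher, and without spot replicate 3 or cloud replicate 5 it called 77 or 80 lower.

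**Figure D1:**
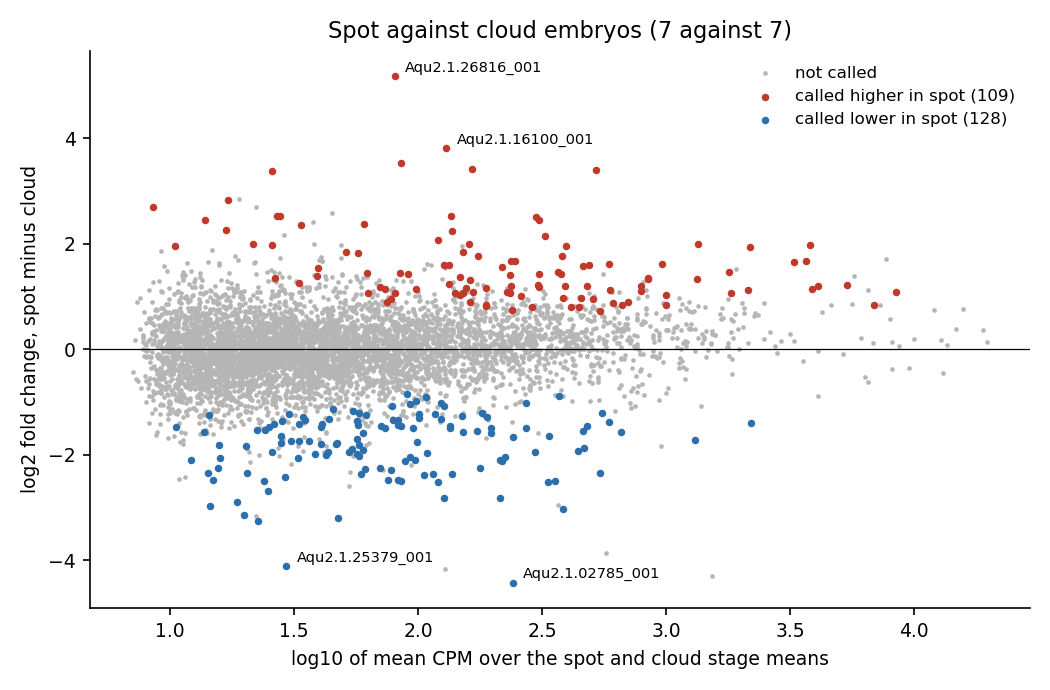
Log2 fold change of spot minus cloud against the log10 mean CPM of the 2 stages, 1 point for each of 5737 gene models. Red points are the 109 called higher in spot and blue points the 128 called lower; the 4 named gene models lie at the upper and lower edges.

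The step was small beside those on its early side. From brown to cloud 1693 of 6363 gene models were called (26.6%) and from cleavage to brown 1369 of 6173 (22.2%), with 7 embryos per stage in each. The median absolute log2 fold change over all gene models tested was 0.37 in spot against cloud, 0.69 in cloud against brown and 0.69 in brown against cleavage. The spread between embryos was no larger in spot against cloud, where edgeR's common biological coefficient of variation was 0.521, against 0.560 and 0.634. The difference between the numbers of calls was not tested. DESeq2's Wald test called more gene models in spot against cloud (447), and also in cloud against brown (2060) and brown against cleavage (1725).

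Neither of the next 2 single steps gave a call by edgeR's test, while ring set directly against spot did. Late spot against spot gave 0 calls of 4785 gene models (0%), with 428 at an unadjusted p under 0.05 and 65 calls by DESeq2. Ring against late spot gave 0 of 4929 (0%), with 433 at an unadjusted p under 0.05 and 54 calls by DESeq2. Across both steps, ring against spot gave 374 calls of 5055 (7.4%), 193 higher and 181 lower, beside the 237 of spot against cloud. Late ring against ring gave 496 calls of 4817 (10.3%). Set against the same 7 cloud embryos, 589 gene models were called at late spot (10.5%), 966 at ring (17.1%) and 1864 at late ring (34.6%), beside the 237 at spot. These comparisons share the cloud embryos and are not independent.

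**Figure D2:**
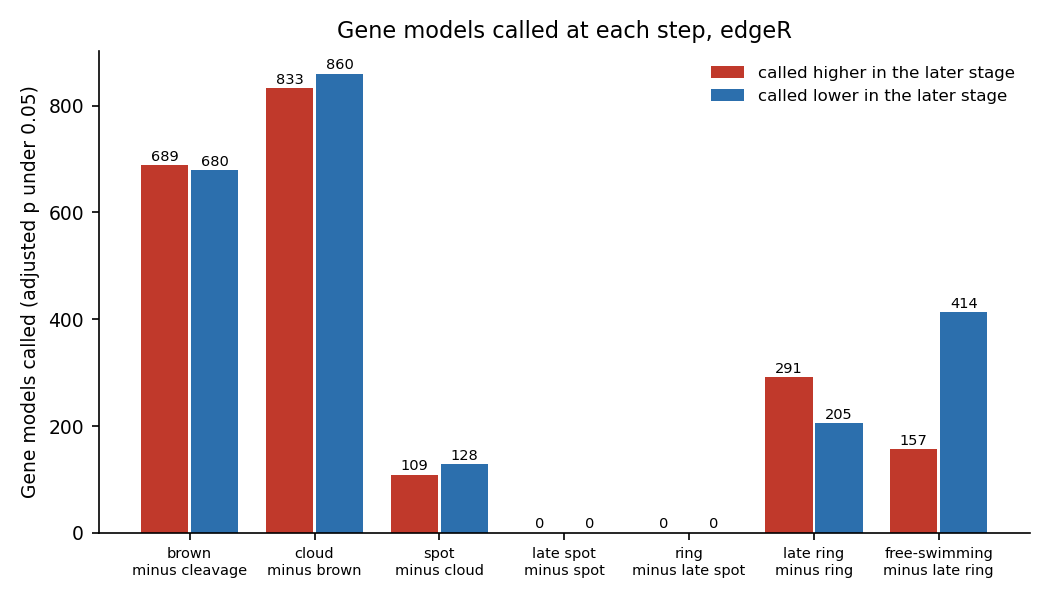
Number of gene models called higher (red) and lower (blue) in the later stage at each of 7 steps by edgeR's quasi-likelihood test. The bars of spot minus cloud, 109 and 128, stand between the taller bars of the earlier steps and 2 steps with 0 calls.

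Single spot embryos resembled cloud, spot and late spot embryos to nearly the same degree. At an equal depth of 147197 counts, the median Spearman correlation over the 5737 gene models was 0.710 between spot and cloud embryos (49 pairs), 0.730 among spot embryos (21 pairs) and 0.751 among cloud embryos (21 pairs). It was 0.703 between spot and late spot embryos, 0.686 between spot and ring embryos and 0.529 between spot and brown embryos (49 pairs each). Spot replicate 1 was closer to cloud embryos, with a median of 0.741, than to other spot embryos, with 0.723. Spot replicate 2 lay the other way, with 0.726 to ring embryos, 0.720 to other spot embryos and 0.675 to cloud embryos. Spot replicate 7 was also closer to late spot embryos, with 0.702, than to other spot embryos, with 0.689. All 7 cloud embryos were closer to their own stage than to any other by this median. The points of each correlation are gene models of the same 2 libraries, not replicates, so the values are a description. The filter chose these gene models by their counts at spot and cloud, so other stages are not compared on equal terms.

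Both named gene models that rose had at most 38.1 CPM in any embryo up to cloud and their highest stage median at ring. They had the highest log2 fold changes among called gene models that averaged 50 CPM or more at spot. Aqu2.1.26816_001 ranged from 23.1 to 534 CPM at spot, with a median of 98.9, and from 0 to 11.4 CPM at cloud, with a median of 3.36. All 7 spot embryos were above all 7 cloud embryos, and spot replicate 2 was far above the others. Its log2 fold change was 5.18 (SE 0.73, adjusted p = 0.00106, edgeR, n = 7 each). In libraries that the choice did not use, its median CPM was 409 in late spot embryos, 701 in ring embryos, 404 in late ring embryos and 422 in larvae, and the lowest of those 34 libraries had 103 CPM. It stood at 4.17 ± 0.47 CPM at chamber-formation and 5.94 ± 3.95 CPM in adults (SD, n = 3 each).

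Aqu2.1.16100_001 ranged from 85.7 to 469 CPM at spot, with a median of 229.9, and from 0.688 to 28.8 CPM at cloud, with a median of 22.8. The stages did not overlap. Its log2 fold change was 3.82 (SE 0.53, adjusted p = 0.00102, edgeR, n = 7 each). Its median was 466.5 CPM at ring, and then stood at 265 CPM at late ring and 87.9 CPM in larvae. Late ring replicate 7 held only 4.86 CPM of it, below every spot, late spot and ring embryo.

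The 2 named gene models that fell were highest at cloud and varied widely among cloud embryos. Aqu2.1.02785_001 ranged from 2.67 to 37.5 CPM at spot, with a median of 14.6, and from 23.0 to 1094 CPM at cloud, with a median of 285. The ranges overlapped at the lowest cloud embryo, and the others were above all spot embryos. Its log2 fold change was -4.43 (SE 0.70, adjusted p = 0.00183, edgeR, n = 7 each). At cleavage its median was 12.3 CPM and at brown 99.5 CPM. At ring every embryo was between 2.90 and 8.33 CPM, while larvae ranged from 0 to 885 CPM, with a median of 15.1.

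Aqu2.1.25379_001 ranged from 0 to 7.15 CPM at spot, with a median of 1.55, and from 8.61 to 123 CPM at cloud, with a median of 34.2. The stages did not overlap, and 2 of the 7 spot embryos had no count. Its log2 fold change was -4.11 (SE 0.66, adjusted p = 0.00194, edgeR, n = 7 each). It had no count in 4 of 7 late spot embryos and 8 of 13 larvae, and was at 17.5 ± 11.8 CPM at chamber-formation (SD, n = 3). All 4 named gene models kept their call in every alternative fit of spot against cloud in which they were tested. These fits draw on the libraries that chose the 4 for their large fold changes, so this is no independent check.

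**Figure D3:**
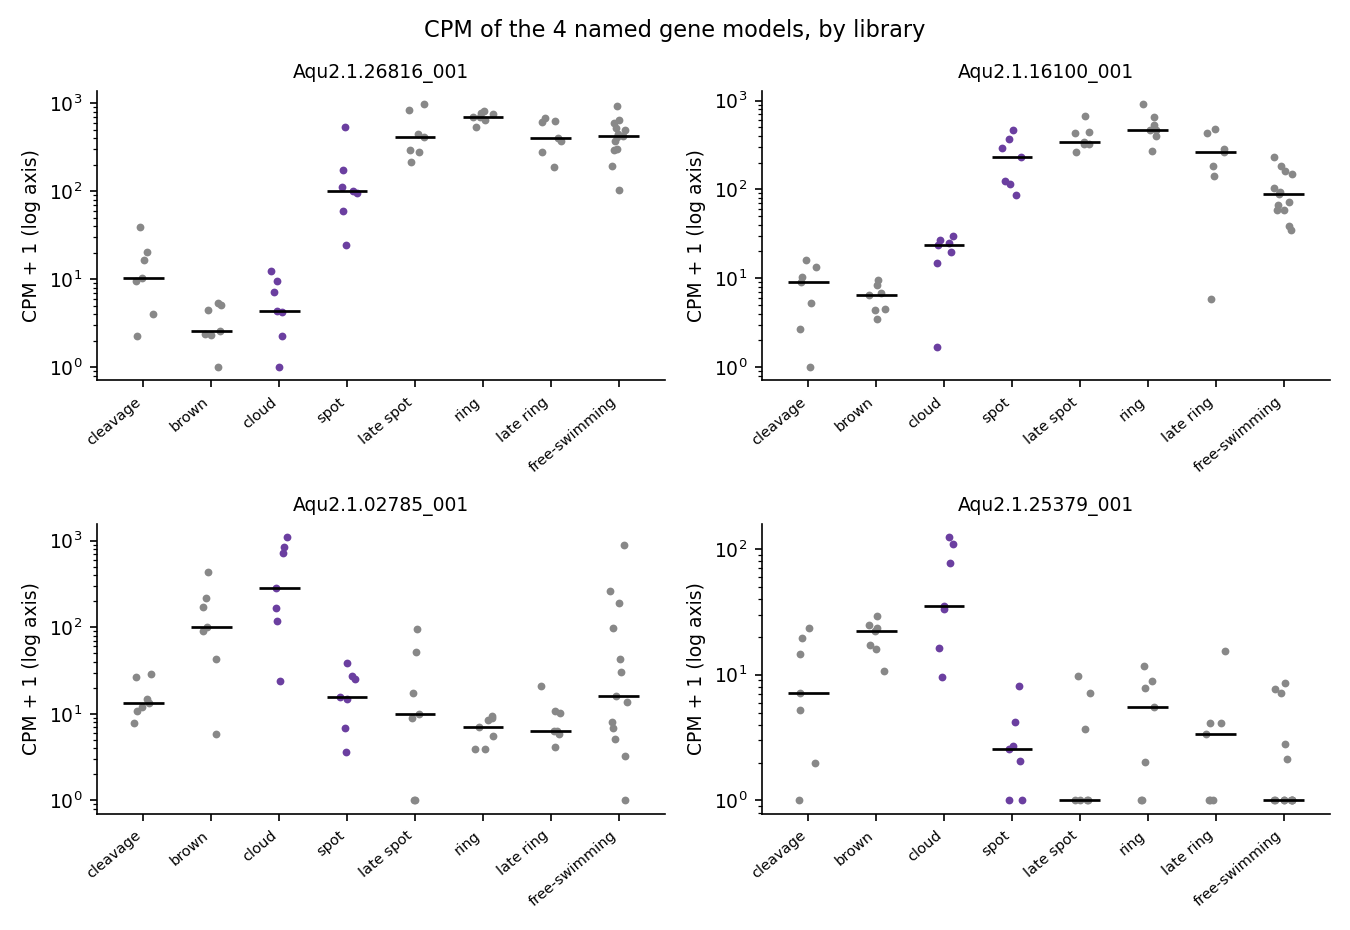
CPM + 1 on a log axis in every library of 8 stages for the 4 named gene models, with spot and cloud in purple and a bar at the stage median. The upper pair is high from spot through ring, and the lower pair is highest at cloud and lower in all embryo stages from spot on, with single larvae of Aqu2.1.02785_001 reaching up to 885 CPM.

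On average the set that rose stood as high at late spot and ring as at spot, although single members did not all do so. The mean of log2(CPM + 1) over the 109 gene models was 8.25 ± 0.20 at spot and 6.90 ± 0.25 at cloud, the stages that chose them. In embryos that did not choose them it was 8.39 ± 0.19 at late spot and 8.32 ± 0.16 at ring (SD, n = 7 each). Each of these 14 embryos lay between 8.17 and 8.73, above all cloud embryos, of which the highest stood at 7.12. Over all 5737 gene models tested the same mean was 5.57 ± 0.12 at cloud, 5.29 ± 0.23 at spot, 5.07 ± 0.23 at late spot and 5.02 ± 0.26 at ring. The filter chose these 5737 by their counts at spot and cloud, so their means at other stages are not free of that choice.

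Late ring embryos varied more widely in this set. Their levels ran from 6.08 to 8.33, with a mean of 7.58 ± 0.76 (SD, n = 7). Late ring replicate 7 was the lowest, below every spot and cloud embryo, and replicate 4 the highest, within the range of spot. Larvae stood at 6.97 ± 0.23 (SD, n = 13), close to cloud. Before cloud the set was at 4.25 ± 0.41 at cleavage and 5.49 ± 0.66 at brown, and 26 of its 109 members were too low to be tested in brown against cleavage.

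The set that fell had its high stage at brown and cloud. It was lower still after spot, as was the mean over the gene models tested, which the filter chose by their counts at spot and cloud. Its mean was 4.72 ± 0.53 at spot and 6.81 ± 0.41 at cloud, and 6.48 ± 0.56 at brown, which took no part in the choice. Late spot embryos were at 4.09 ± 0.43, ring embryos at 3.97 ± 0.35 and late ring embryos at 3.91 ± 0.13 (SD, n = 7 each). Spot embryos ran from 3.84 in replicate 2 to 5.34 in replicate 5, and all were below the lowest cloud embryo, replicate 1 at 6.01. The range of late ring embryos was narrow, from 3.70 to 4.09.

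Member by member, 63 of the 109 that rose had a higher mean at late spot than at spot, 41 lay between cloud and spot, and 5 were at or below cloud. At ring 53 were above their spot mean, 39 lay between and 17 were at or below cloud, and at late ring 41 were at or below cloud. In larvae 29 were above their spot mean and 57 at or below cloud. Of the 128 that fell, 101 were lower at late spot than at spot and 98 were lower at ring than at spot, and 0 were back at their cloud mean at either stage. In larvae 8 were at or above their cloud mean. Cloud and spot chose the members, so these counts describe the members and carry no test. The same counts were not made over all gene models tested. The mean log2(CPM + 1) of all gene models tested was also lower after spot, at 5.29 at spot, 5.07 at late spot and 5.02 at ring. The filter chose those gene models by their counts at spot and cloud, so that mean is not free of the choice either.

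Among the 6 stages from cleavage to larva other than spot and cloud, 113 of the 128 that fell had their highest mean at brown (88.3%), against 36.2% of all gene models tested. Of the 109 that rose, 53 were highest at late spot (48.6%, against 15.0% of all tested) and 23 at ring (21.1%, against 5.65%). Another 14 were highest in larvae (12.8%, against 17.1%), 13 at late ring, 5 at brown and 1 at cleavage. All gene models tested are here those that passed the filter on counts at spot and cloud.

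**Figure D4:**
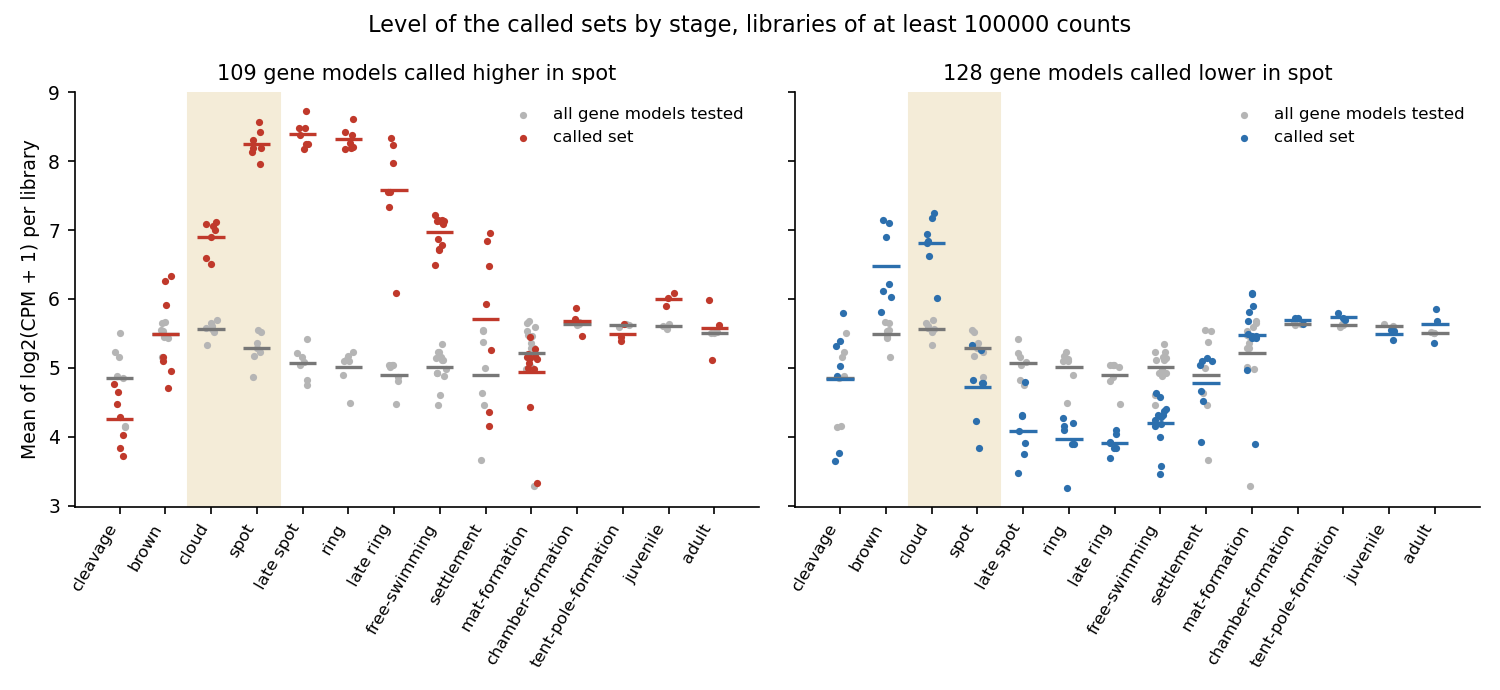
Mean log2(CPM + 1) per library over the 109 gene models called higher in spot (red) and the 128 called lower (blue), with all gene models tested in grey and bars at the stage means; libraries under 100000 counts are left out. The shaded stages, cloud and spot, chose the sets and, by the filter on low counts, the gene models in grey. Late spot and ring embryos keep the levels of spot or go past them, and the red points spread at late ring.

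Steps that used no spot or cloud library were then tested over all gene models. In brown against cleavage, where 11.2% of all gene models tested were called higher and 11% lower, 59 of the 123 tested members that fell at spot had risen (48%) and 1 had fallen. Their median log2 fold change there was 1.31, against 0.13 over all gene models tested. Of the members that rose at spot, 83 were tested, 23 had risen (27.7%) and 2 had fallen, with a median of 0.89. With the library total as a covariate 39 of the members that fell at spot were called higher in brown.

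The 59 members that rose at brown and fell at spot went up and came down again within brooding. Their mean log2(CPM + 1) was 4.77 ± 0.90 at cleavage, 7.08 ± 0.68 at brown and 7.44 ± 0.53 at cloud. It was 5.16 ± 0.71 at spot and 3.73 ± 0.14 at late ring (SD, n = 7 each), below cleavage. The 23 members that rose at brown and again at spot were at 3.60 ± 0.84 at cleavage, 6.86 ± 0.90 at brown, 8.46 ± 0.19 at cloud, 9.55 ± 0.12 at spot and 7.32 ± 1.21 at late ring (SD, n = 7 each). The values at cleavage, brown, cloud and spot chose these members and describe them.

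In late ring against ring, where 6.04% of all gene models tested were called higher and 4.26% lower, 14 of 107 tested members that rose at spot fell again (13.1%) and 7 rose further (6.54%). Their median log2 fold change was -0.47, against -0.01 over all gene models tested. Without late ring replicate 3 the number that fell was 9, and with DESeq2's Wald test it was 29. The 14 that fell had a mean log2(CPM + 1) of 8.93 ± 0.24 at spot, 8.68 ± 0.50 at late spot, 8.25 ± 0.24 at ring and 5.94 ± 0.96 at late ring (SD, n = 7 each). The 7 that rose further are a share close to the 6.04% of all gene models tested. Their mean was 9.63 ± 0.35 at late ring and 9.85 ± 0.51 in larvae, although 1 of the 7 was called lower in larvae against late ring. The ring and late ring values chose the 14 and the 7, so at those stages the levels describe the split.

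Of the members that fell at spot, 82 were tested in late ring against ring, 5 were called higher (6.1%) and 0 lower. At an unadjusted p under 0.05, 4 of them were lower, and DESeq2's Wald test called 2 lower. The other 46 of the 128 were too low at ring and late ring to pass the filter. In late ring against late spot, a comparison added after the data were seen in which 9.5% of all gene models tested were called higher and 10.4% lower, 32 of 106 members that rose at spot were called lower (30.2%) and 7 higher. Of 81 members that fell at spot, 6 were called higher and 6 lower.

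More of the members that rose were called lower in larvae against late ring than in late ring against ring. The larval step set 13 larvae against 7 embryos and the other 7 against 7, so these counts are not like for like. In free-swimming larvae against late ring embryos, where 3.21% of all gene models tested were called higher and 8.46% lower, 40 of 97 tested members were lower (41.2%) and 1 was higher. Their median log2 fold change was -0.82, against 0.01 over all gene models tested. With the library total as a covariate 23 were called lower. Of 79 tested members that fell at spot, 5 were called higher (6.33%) and 0 lower, with 1 lower at an unadjusted p under 0.05 and 1 by DESeq2. Without late ring replicate 7 the 5 called higher became 11, and without replicate 4 none was called higher. The other 49 members that fell at spot were too low in late ring embryos and larvae to pass the filter. Their mean log2(CPM + 1) was 2.21 ± 0.20 in late ring embryos (SD, n = 7) and 2.16 ± 0.44 in larvae (SD, n = 13). A change in those 49 could not be called, so the counts higher and lower hold for the 79 only.

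The mean log2(CPM + 1) of the 40 members that were lower in larvae was 8.08 ± 0.32 at cloud, 9.42 ± 0.20 at spot and 9.72 ± 0.21 at late spot. Ring embryos held them at 9.73 ± 0.19 and late ring embryos at 8.65 ± 1.33 (SD, n = 7 each). Larvae were at 7.44 ± 0.28 (SD, n = 13). The 56 members with no call at that step were at 6.48 ± 0.23 at cloud, 7.82 ± 0.25 at spot and 7.67 ± 0.19 in larvae. The call used the late ring and larval values, so these describe the split.

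**Figure D5:**
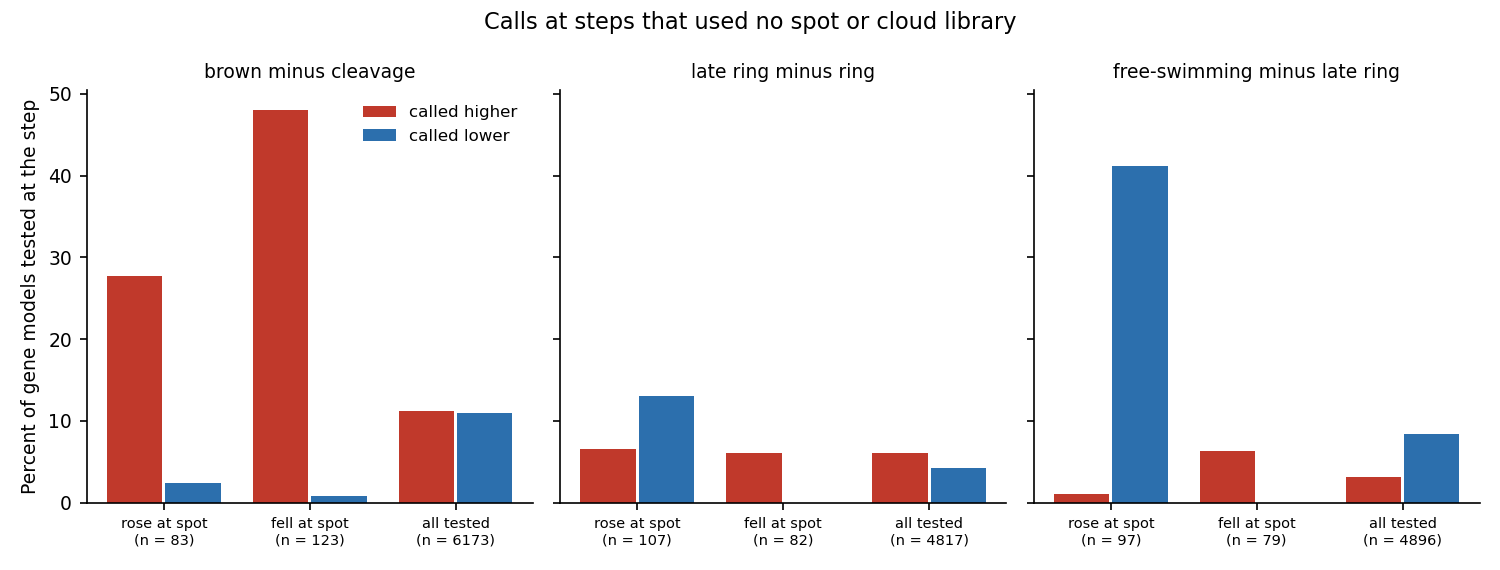
Percent of gene models called higher (red) and lower (blue) in brown minus cleavage, late ring minus ring and free-swimming minus late ring, for members that rose at spot, members that fell at spot and all gene models tested. The tallest red bar is 48% for members that fell at spot, in brown against cleavage, and the tallest blue bar is 41.2% for members that rose at spot, in larvae against late ring.

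After the larva the sets were followed within the libraries numbered 101 to 124, since depth after settlement goes with the sample number. The set that fell stood at 5.08 ± 0.03 at settlement (SD, n = 3), 5.71 ± 0.27 at mat-formation (n = 9), 5.70 ± 0.05 at chamber-formation (n = 3) and 5.63 ± 0.25 in adults (n = 3). All gene models tested stood at 5.49 ± 0.09, 5.48 ± 0.14, 5.64 ± 0.02 and 5.51 ± 0.01 at the same stages. The set that rose stood at 6.76 ± 0.25, 5.17 ± 0.14, 5.68 ± 0.20 and 5.58 ± 0.44. All embryos and larvae are numbered 1 to 100, so stage and number set cannot be told apart between them and these libraries.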

How the data were processed

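Per the labels' protocols, individuals were taken singly, staged by their form and stored in RNAlater before CEL-seq. CASAVA 1.8, Bowtie2 2.1.0 and HTSeq 0.5.4p3 are named in the submitters' processing notes. No source used here gives their settings, the genome build, the annotation, or whether molecular identifiers were counted. The deposited values are whole numbers and were taken to be counts. Only part of the table was at hand, and its incomplete last line was dropped. Total counts, CPM and shares therefore refer to the 36868 complete lines. The table held 0 columns of other samples.

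Stages follow the labels. Replicate numbers follow accession order and pair nothing. The test was edgeR's quasi-likelihood test on the counts (edgeR 4.0.16, R 4.3.3, TMM scaling, filterByExpr with a minimum count of 10 and total of 15). It was two-sided, with Benjamini-Hochberg adjustment over all gene models tested, and was fitted on the stages compared only, with log2 fold changes of the later stage minus the earlier. An SE is the log2 fold change divided by the square root of the F statistic. DESeq2 1.42.0 was the second tool. What the p-values weigh is the spread among embryos of a stage, whose mothers are not named. Set levels are means of log2(CPM + 1) in libraries of at least 100000 counts. Permutation tests enumerated all regroupings, 3432 for 7 against 7 embryos and fewer with 1 embryo left out, in Python 3.11.15 and scipy 1.17.1. Replicates did not repeat: the closest pairs had a chi-square per degree of freedom of 8.98 at spot and 23.0 at cloud.

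The rule for named genes names the 2 gene models with the highest log2 fold change and the 2 with the lowest, among those called that averaged 50 CPM or more in the higher stage. The comparison, rule and steps were chosen with earlier results of these data known. Alternatives were other scalings, filters, covariates, fits, thinning and left-out libraries.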

Additional observations from a re-analysis of the deposited data

Results flagged for a closer look

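In 6 of 48 groups of 7 embryos examined, 1 embryo stood apart from the others by Dixon's criterion, which chance meets in about 1 of 20 groups. Cloud replicate 4 had 3059409 total counts, against 580452 to 1609693 in the other cloud embryos. It also held 12117 gene models at equal depth, against 9158 to 10311. Without it 75 gene models were called higher and 89 lower at spot. Spot replicate 2 had 534 CPM of Aqu2.1.26816_001, against 23.1 to 174 CPM in the other spot embryos. Its log2 fold change stayed between 4.32 and 5.70 when any 1 embryo was left out. Ring replicate 7 had a level of 3.26 in the set that fell, against 3.90 to 4.28 in the other ring embryos. Late ring replicate 1 had 19.8 CPM of Aqu2.1.02785_001, against 3.12 to 9.72 CPM in the others. Late ring replicate 4 had 14.4 CPM of Aqu2.1.25379_001, against 0 to 3.12 CPM.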

How the results depend on the processing

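No paired analysis was possible because the labels give no replicate numbers shared by the stages. At spot against cloud, 109 higher and 128 lower became 218 and 229 with DESeq2's Wald test, 63 and 194 with total-count scaling, and 168 and 251 without a filter on low counts. They became 44 and 42 in a fit of the 7 embryo stages, 20 and 17 in a fit of all staged libraries, and 81 and 77 once the library total entered as a covariate. Leaving out single libraries gave 61 to 124 higher and 73 to 155 lower. Without cloud replicate 4 and spot replicate 7 together, chosen after seeing the data, 66 were higher and 90 lower, and without the spot libraries under 500000 counts 95 and 101.

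DESeq2's Wald test called 447 gene models in spot against cloud, 65 in late spot against spot, 54 in ring against late spot and 790 in late ring against ring. Thinned to 147197 counts, where fewer gene models passed the filter, edgeR called 657 in brown against cleavage, 804 in cloud against brown and 136 in spot against cloud. Members that rose and were lower in late ring against ring numbered 29 with DESeq2 and 9 to 20 without single libraries. Members that fell were called lower there in 2 cases with DESeq2 and 0 to 1 without single libraries, and higher in 3 with the library total as covariate and 2 to 5 without single libraries. In larvae against late ring, members that rose were lower in 23 with that covariate and in 28 to 55 without single late ring libraries. No larval library was left out in turn. They were higher in 2 with DESeq2, 0 with the covariate and 0 to 2 without single late ring libraries. Members that fell were higher there in 1 with the covariate and 0 to 11 without single late ring libraries, and lower in 1 with DESeq2 and 0 to 1 without single late ring libraries. In brown against cleavage, members that fell at spot were higher in 39 with the covariate and 46 to 62 without single libraries. Members that rose at spot were higher in 17 to 25 and lower in 1 to 3 without single libraries, and lower in 1 with the covariate. In late ring against late spot, members that rose were higher in 13 with DESeq2 and 6 to 13 without single libraries, and lower in 25 to 32. Members that fell were higher in 4 to 7 and lower in 2 to 6.

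With TMM effective library sizes, the set that rose stood 1.74 above cloud at ring and -0.11 from cloud in larvae, against 1.42 and 0.08. The set that fell stood -2.68 from cloud at late ring, against -2.90. With a pseudocount of 5 its distance from cloud was -2.25 for late spot embryos, -2.37 for ring, -2.41 for late ring and -2.13 for larvae. Gene models with a count differed by -2613 between spot and cloud without thinning (exact permutation p = 0.0303), and by -1259 to -664.5 without single libraries at equal depth. Except where given in the report, the cause of these changes was not tested. The lowest total, 375199 counts at spot, limits what can be seen of gene models at low CPM.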

Other observations

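A few of the gene models that changed at spot were neighbours in identifier number. Of 2626 pairs of consecutive identifiers with both tested, 9 had both members called, 5 of them with both higher at spot, 2 with both lower and the others in opposite directions. Of 220 neighbour places of called gene models, 6.36% held a gene model called in the same direction, beside 1.9% called higher and 2.23% called lower over all gene models tested. The difference between these shares was not tested. No annotation was used here, so distances on the genome are not given.

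The individual with no stage label had 23082 counts. Its mean log2(CPM + 1) was 3.71 in the set that rose at spot, 3.96 in the set that fell and 3.16 over all gene models tested. At this depth its levels cannot be set beside those of the embryo libraries.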
